A study of Mus musculus with 30 samples.

Results

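The mouse mitochondrial genome is a small circular DNA that is listed in the deposited tables as chrM, and its transcripts were chosen here as all table entries placed on chrM. They numbered 37 of 57186 entries, and comprised 13 messenger RNAs (mRNAs), 2 ribosomal RNAs (rRNAs) and 22 transfer RNAs (tRNAs). Gastrocnemius muscle, collected with plantaris, was sequenced from wild-type male C57BL/6J mice, 14 weeks old at the start and kept singly with a running wheel for 64 weeks, 1 library per mouse. The LD group (n = 14) stayed on a fixed cycle of 12 h light and 12 h dark, and the light cycle of the ADV group (n = 16) was advanced by 8 h every 4 days. Whether this schedule changed the muscle's mitochondrial transcripts was the question asked of the comparison. Both groups had first been entrained to the fixed cycle, then held in constant darkness and returned to the fixed cycle. Tissue was collected during the day, and the hour at which each mouse was sampled was not used here. The RNA was poly(A)-selected.

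Mitochondrial DNA is transcribed from both of its strands as long precursors, and the tRNAs that lie between the other genes mark the places where the precursors are cut. The mRNAs encode core subunits of the respiratory chain, namely complex I (the mt-Nd genes), complex III (mt-Cytb), complex IV (mt-Co1, mt-Co2 and mt-Co3) and the ATP synthase, complex V (mt-Atp6 and mt-Atp8). The rRNAs form the mitochondrial ribosome with proteins imported from the cytosol, and every other protein of the organelle is encoded in the nucleus. Skeletal muscle is rich in mitochondria.

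Most mitochondrial mRNAs receive a poly(A) tail, which for some of them also completes the stop codon. In the reference sequence (GRCm39, chrM, plus strand) 3 of the 13 mRNAs had a length that left 1 base after the last whole codon, a T. Their ends are shown because they are the places where the tail that the selection relies on is attached, beside that of mt-Co1, which has a complete stop codon. The last 15 bases of each mRNA are in capitals, and the 15 bases that follow are in lower case.
mt-Co3, chrM:9376-9405: ATTGATGAGGATCTTactcccttagtataa
mt-Nd4, chrM:11530-11559: CAGGCCTGACAATATgtgaatatagtttac
mt-Cytb, chrM:15274-15303: TAAAATTATATCCATgtcttgatagtataa
mt-Co1, chrM:6858-6887: GTAAAAGTAAAATAAgaaaggaaggaatcg

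The tissue was muscle by its markers, since the summed level of 12 fast fiber genes was 143100 to 223800 CPM (counts scaled to the exon reads of a library) and creatine kinase (Ckm) averaged 7638 FPKM. FPKM is a count divided by transcript length and library total, so that levels of different genes can be compared. Libraries held 18875468.5 to 28512674 read pairs on exons. At that depth the 95% Wilson interval of a library's chrM share was narrow, 6.21% to 6.23% for the library with the lowest share, and it covers counting error only.

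Mitochondrial transcripts were a large part of all exon reads. In the LD group the share was 6.22% in the lowest library, 11.0% at the median and 12.7% in the highest, with a mean of 10.4% ± 1.96 (SD, n = 14). In the ADV group it was 6.80%, 9.86% and 13.6%, with a mean of 9.85% ± 1.68 (SD, n = 16). The groups overlapped over nearly their whole range, the ADV mean was lower by 0.538 percentage points, and 13 of 16 ADV libraries lay under the LD median. The lowest library (LD mouse 23) and the highest (ADV mouse 31) came from opposite groups to the direction of that difference.

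Of the reads on chrM, 97.7% were on mRNAs, 2.08% on rRNAs and 0.171% on tRNAs. The mRNA share was lower in the ADV group by 0.576 points (LD, 10.2% ± 1.93, and ADV, 9.61% ± 1.65), while the rRNA share was higher, at 0.188% ± 0.0608 in LD and 0.228% ± 0.0535 in ADV (SD, n = 14 and 16). The LD group had 1.18, 1.84 and 2.73 rRNA reads per 100 mRNA reads in its lowest, median and highest library, and the ADV group 1.27, 2.34 and 3.36. The ranges overlapped, but 15 of 16 ADV libraries lay above the LD median, with means of 1.86 ± 0.555 and 2.40 ± 0.580. The exception was ADV mouse 27, which also had the lowest rRNA share of all libraries. For tRNAs the order was that of the mRNAs, with 1.87 ± 0.357 tRNA reads per 1000 mRNA reads in LD and 1.62 ± 0.313 in ADV. No test is given for these sums, because the tests were made gene by gene. The RNA was poly(A)-selected, and how well the selection captured rRNAs and tRNAs was not tested. These ratios are therefore of reads in the libraries and not of RNA in the muscle.

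**Figure D1:**
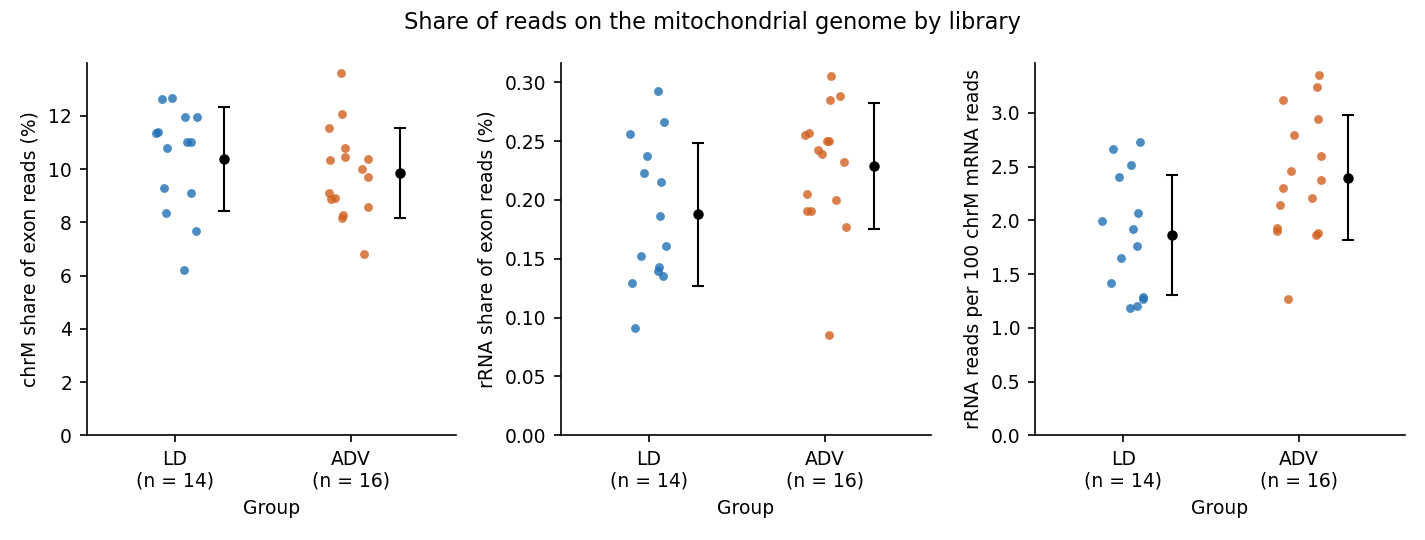
Each point is a library of the LD group (n = 14) or the ADV group (n = 16), and the black point with its bar is the mean ± SD. The panels show the chrM share of exon reads in percent, the rRNA share in percent and the rRNA reads per 100 chrM mRNA reads, in which 15 of 16 ADV libraries lie above the LD median of 1.84.

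The mitochondrial mRNAs fell into separate classes of abundance. In the first were 6 mRNAs read from the plus strand, with mean levels of 5429 FPKM (mt-Nd4), 5723 (mt-Nd5), 7913 (mt-Nd2), 11770 (mt-Nd1), 15610 (mt-Cytb) and 22610 FPKM (mt-Co1) over all 30 libraries. In the second were mt-Co2 (26.4 FPKM), mt-Co3 (20.8), mt-Nd4l (12.5), mt-Atp6 (12.3), mt-Atp8 (8.97) and mt-Nd3 (8.06 FPKM). These 6 genes lie next to each other, and together they held a median of 0.0531% of the mRNA reads of a library. Within the first class mt-Nd4 and mt-Nd5 had overlapping ranges (3675 to 6974 and 3625 to 7349 FPKM), so the order of these measured levels is not larger than the spread between mice.

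The second class lies in a part of chrM that has a copy in the nuclear genome. A stretch of nuclear DNA, chr1:24650616-24655269, matches chrM:6390-11042 over 4654 aligned bases with 99.9% identity and on the opposite strand. It holds the whole of those 6 mRNAs, 31.3% of mt-Co1 (its end) and 63.6% of mt-Nd4 (its first part). The mRNAs not wholly within it, mt-Co1 and mt-Nd4 included, are called outside the copy below. Reads were 101 bases long, and no 101-base window of mt-Co2, mt-Atp8, mt-Atp6, mt-Co3 or mt-Nd4l was unique in the genome. For mt-Nd3 23.3% of windows were unique, for mt-Nd4 40.1%, for mt-Co1 67.9%, and for each of the other mRNAs at least 97.2%. The authors removed reads with a mapping quality under 10, a step that removes reads with equally good matches elsewhere, so the levels of the second class cannot be read as levels of these mRNAs in the muscle. The measured levels of mt-Co1 and mt-Nd4 can be too low for the same reason. Divided by the share of unique windows, mean levels were 33300 FPKM for mt-Co1, 13550 for mt-Nd4 and 5723 for mt-Nd5. How many reads were lost was not tested.

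The substitution within mt-Nd3 is shown because it makes windows of that gene unique; a further difference, in the neighbouring mt-Tr, lies outside it. The substitution was T9461C, counted from the first base of chrM, with the chrM base first and the base of the chromosome 1 copy last, both written on the chrM plus strand and in capitals.
chrM:9447-9475: cagaagagagtaatTaacctgtacactgt
chr1:24652184-24652212: cagaagagagtaatCaacctgtacactgt

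Nuclear entries within the copy moved with their chrM counterparts. Gm28661 (matching mt-Co2), Atp6-ps (mt-Atp6), Gm28437 (mt-Co3), Gm28438 (mt-Nd3) and Gm10222 (mt-Nd4l) together had 491 to 1879.5 reads per library, against 569 to 2188.5 reads on the matching chrM genes. Their reads came to 76.0 to 94.5 per 100 reads of the chrM genes in every library, and the log2 read numbers had a Pearson r of 0.99 over 30 libraries. Atp6-ps held more reads than mt-Atp6 (115.5% of them over all libraries) and Gm28438 fewer than mt-Nd3 (17.02%). Within the same copy Gm29216 and Gm28439, which match parts of mt-Co1 and mt-Nd4, held 0.0857% and 0.0957% of the reads of those genes. Copies of mt-Co1, mt-Co2 and mt-Nd2 on chromosome 2 (Gm13340, Gm13341 and Gm13339, in a match of 97.4% identity) and of mt-Nd5, mt-Cytb and mt-Nd6 on chromosome 4 (Gm11407, Gm11410 and Gm11408, 93.0%) held up to 0.22% of the reads of their chrM genes, except Gm13341 with 103.6% of those of mt-Co2.

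mt-Nd6, a subunit of complex I and the one mRNA encoded on the minus strand, stood between the classes at 90.1 FPKM, although all of its windows were unique. It had 4.61 ± 0.767 reads per 1000 reads of mt-Nd5, its neighbour on the other strand, in the LD group and 4.32 ± 0.450 in the ADV group. The sources used here do not say whether counting used the strand, and without it reads of mt-Nd6 and of RNA from the opposite strand cannot be told apart. How well the poly(A) selection captured mt-Nd6 was not tested, so 90.1 FPKM need not be its level in the muscle.

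In these poly(A)-selected libraries the rRNAs were at 812 FPKM (mt-Rnr1, of the small ribosomal subunit) and 721 FPKM (mt-Rnr2, of the large subunit). Among the tRNAs, which have no long poly(A) tail, 8 passed the filter for testing, a mean over 20 reads and over 0.5 FPKM. The leucine tRNA mt-Tl1 was at 1450 FPKM, the methionine tRNA mt-Tm at 556 FPKM, and the other 6 (mt-Tw, mt-Tt, mt-Ti, mt-Tg, mt-Tv and mt-Tl2) between 12.0 and 57.7 FPKM. The 14 other tRNAs had means of 0.1 to 11.1 reads, of which mt-Te and mt-Tf had the most, and all 8 tRNAs that lie on the minus strand were among them. A tRNA is shorter than a read, so a read on one of them extends into a neighbour, and part of the tRNA counts belongs to precursors or to neighbouring genes by construction.

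**Figure D2:**
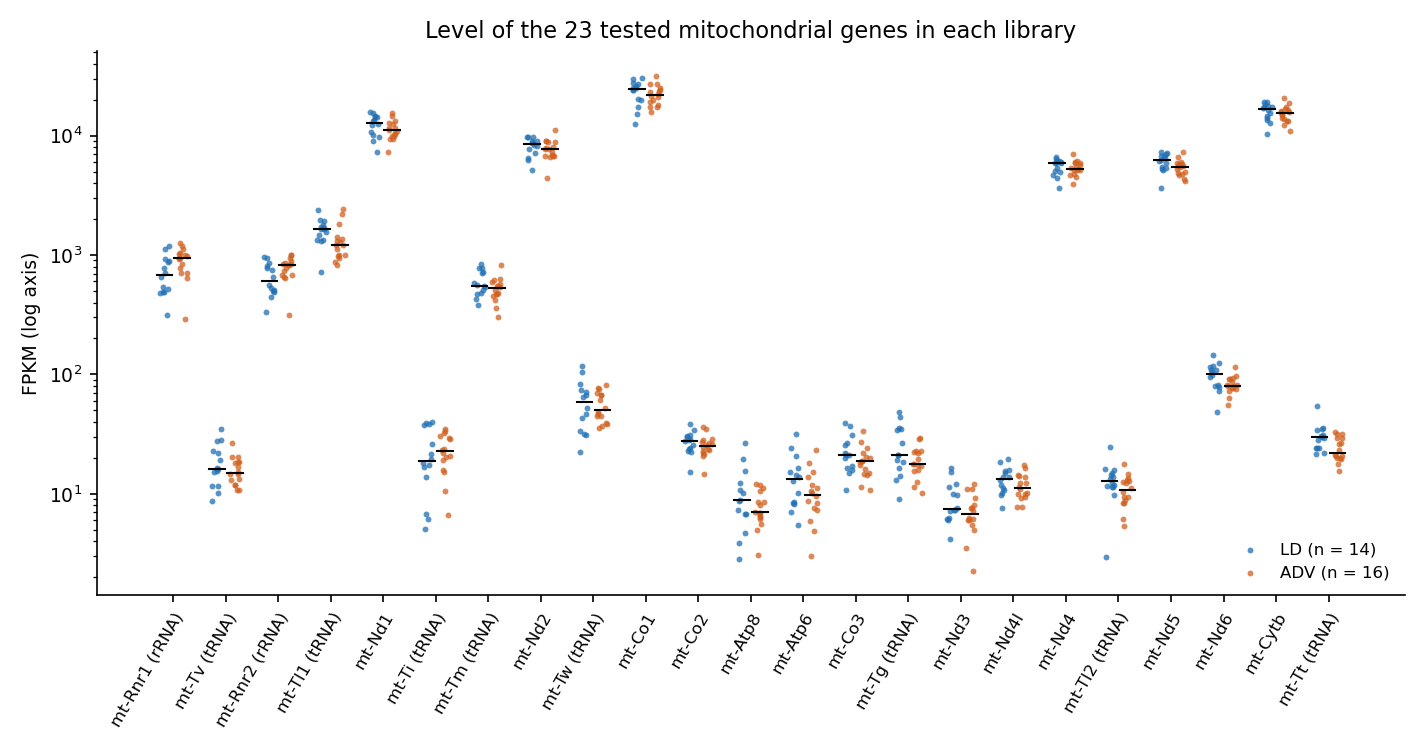
Level of each of the 23 genes that passed the filter, in order along the mitochondrial genome, in FPKM on a log axis. Points are libraries of the LD group (blue, n = 14) and the ADV group (orange, n = 16), and bars are medians. The 6 plus-strand mRNAs not wholly inside the chromosome 1 copy lie at or above 3625 FPKM in every library. The 6 wholly inside it lie under 40.

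None of the 23 tested genes differed between the groups at FDR < 0.05 (edgeR quasi-likelihood test, Benjamini-Hochberg over 12030 genes), where 10.8% of all genes tested did (5.61% higher and 5.20% lower in ADV, and 2.09% with a fold change over 1.3 as well), and 3 had an unadjusted p under 0.05, a level that 30.1% of all genes reached. DESeq2 also called 0 of the 23 (14% of all genes), as did a fit with the label number as a block (4.11%) and one scaled to the chrM total (1.11%). The signs were those of the read shares. All 13 mRNAs had a log2 fold change under 0 (median -0.08 for the 6 plus-strand mRNAs outside the copy and -0.32 for the 6 inside it), but 6 of 13 did with the GC content trend removed and 10 of 13 when scaled to the chrM total. Of the tRNAs 7 of 8 were under 0, and both rRNAs were above 0.

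For the most abundant mRNA, mt-Co1, which encodes the catalytic subunit of complex IV, the LD group had 12590, 24450 and 30490 FPKM in its lowest, median and highest library and the ADV group 15650, 21930 and 31840. The groups overlapped, and the log2 fold change was -0.07 (SE 0.11, FDR 0.688, edgeR with Benjamini-Hochberg adjustment). mt-Cytb, the catalytic core of complex III, had 10220, 16690 and 19100 FPKM in LD and 11000, 15430 and 20610 in ADV. That difference was also within the spread between mice (log2 fold change -0.07, SE 0.09, FDR 0.642). The 95% interval of the fold change lay within a factor of 1.3 either way for all 6 plus-strand mRNAs outside the chromosome 1 copy, with mt-Nd4 the narrowest (-0.21 to 0.11 on the log2 scale) and mt-Nd5 the lowest estimate (-0.17, interval -0.34 to 0.01).

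The lowest unadjusted p-values belonged to genes outside the abundant class. The threonine tRNA mt-Tt had 21.7, 29.7 and 54.0 FPKM in LD and 15.6, 22.1 and 32.7 in ADV, with 3 of 16 ADV libraries above the LD median. Its log2 fold change was -0.35 (SE 0.13, FDR 0.0696 by edgeR with Benjamini-Hochberg adjustment), which was 0.0485 without ADV mouse 36 and 0.698 with the GC trend removed (log2 fold change -0.11). mt-Nd6 had 48.3, 102 and 145 FPKM in LD and 56.0, 80.6 and 116 in ADV, and 1 of 16 ADV libraries lay above the LD median. Its log2 fold change was -0.27 (SE 0.11, FDR 0.0987), and it was -0.33 with an FDR of 0.0268 without LD mouse 23 and -0.02 with an FDR of 0.919 with the GC trend removed. The glycine tRNA mt-Tg, at 14.5 to 100.5 reads per library, had a log2 fold change of -0.45 (SE 0.20, FDR 0.125).

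Both rRNAs had estimates above 0, as did mt-Ti among the tRNAs (0.05, FDR 0.921). mt-Rnr1 had 314, 682.5 and 1191 FPKM in LD and 291, 943 and 1255 in ADV, and 14 of 16 ADV libraries lay above the LD median. mt-Rnr2 had 334, 607 and 970 FPKM in LD and 316, 824 and 1007 in ADV, with 15 of 16 above. The ranges overlapped, and the log2 fold changes of 0.33 (SE 0.17, FDR 0.198) and 0.25 (SE 0.14, FDR 0.230) did not pass the test (edgeR with Benjamini-Hochberg adjustment). With each library's trend of counts with GC content removed, both passed it (mt-Rnr1, 0.53, FDR 0.0493, and mt-Rnr2, 0.47, FDR 0.0293), and 5.05% of all genes were then called. In the same fit the log2 fold changes of 7 of 13 mRNAs were above 0, so the direction of the mRNAs depended on this step and that of the rRNAs did not. Relative to the chrM total of each library, the log2 fold changes were 0.40 for mt-Rnr1 (SE 0.15, FDR 0.242) and 0.33 for mt-Rnr2 (SE 0.12, FDR 0.204). That edgeR fit called 1.11% of all genes.

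**Figure D3:**
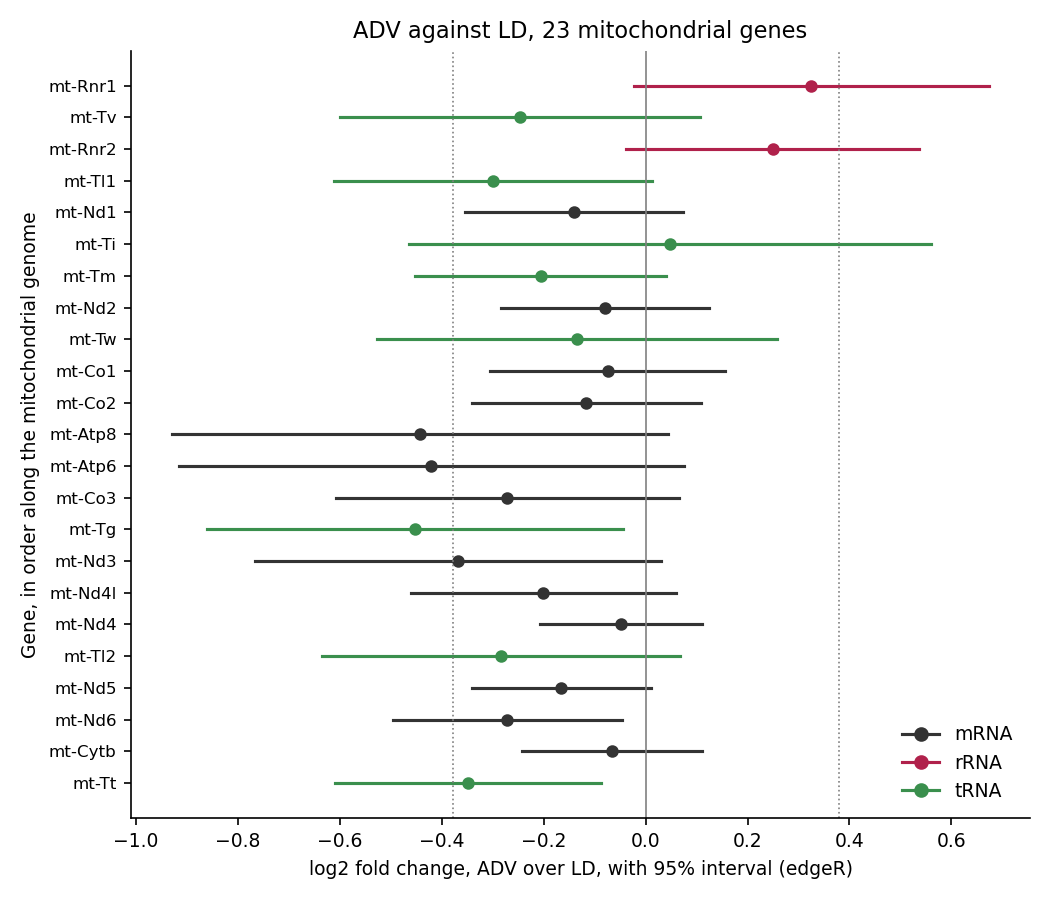
Log2 fold change of the ADV group over the LD group with its 95% interval (edgeR, n = 16 and 14) for 23 genes in order along the mitochondrial genome, mRNAs in black, rRNAs in red and tRNAs in green. Dotted lines mark a fold change of 1.3; in this fit, though not with the GC trend removed, all mRNAs lie left of 0, both rRNAs lie right of it, and no gene passed an FDR of 0.05.

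The SD of the mRNA share between mice was larger than the difference between the groups, and the mRNAs varied together. Over 30 libraries the 15 pairs among the 6 plus-strand mRNAs outside the copy had a median Pearson r of 0.91 (0.87 to 0.98; log2(CPM + 1)), with mt-Nd1 and mt-Nd2, which lie side by side, at 0.97 (Spearman rho 0.98, r 0.99 within LD and 0.97 within ADV, 0.96 without the libraries farthest from the median, ADV mouse 27 and LD mouse 23). All libraries share the denominator of total reads, and the genes share the chrM share. As log2 shares of the chrM reads the same pairs had a median r of -0.22 (-0.71 to 0.88). As unlogged shares mt-Nd1 and mt-Nd2 were at 0.57, and mt-Co1 and mt-Cytb, the most abundant, at -0.67 against 0.94 before. Shares of the same total tend to vary inversely by construction, most of all for abundant genes. The negative values therefore cannot be read as opposite changes of these genes. mt-Nd6 on the other strand followed the plus-strand mRNAs less closely (median r 0.70, and 0.83 with mt-Nd5). The 6 mRNAs inside the copy correlated with each other at a median of 0.84 and with those outside at 0.78.

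The rRNAs formed a pair of their own. mt-Rnr1 and mt-Rnr2 had r = 0.97 (rho 0.95, 0.94 without ADV mouse 27 and LD mouse 33), also as shares of the chrM reads (0.97). Their sum correlated with the sum of the mRNAs at only r = 0.42 (rho 0.31, 0.47 within LD and 0.52 within ADV), and at 0.24 without ADV mouse 27 and LD mouse 23, so that this relation rests in part on those libraries. The summed tRNAs, most of whose reads were on mt-Tl1, had r = 0.74 with the mRNAs (rho 0.67, 0.63 without the same libraries) and r = 0.12 with the rRNAs (rho 0.11). Gene by gene the separation was less clear, with a median r of 0.50 (0.01 to 0.85) between tRNAs and the plus-strand mRNAs outside the copy and of 0.31 (-0.22 to 0.80) between tRNAs and rRNAs.

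In 1 short stretch of the genome mt-Rnr2, mt-Tl1 and mt-Nd1 follow each other with no base between them. mt-Tl1 varied with mt-Nd1 downstream (r = 0.70, rho 0.60, 0.66 without ADV mouse 30 and LD mouse 23) and more closely with the distant mt-Nd5 (r = 0.78), and had r = 0.08 (rho 0.00) with mt-Rnr2 directly upstream, while mt-Rnr2 and mt-Nd1 had r = 0.49 (rho 0.39). As shares of the chrM reads mt-Tl1 had r = 0.24 with mt-Nd1 (0.17 within LD and 0.09 within ADV), 0.48 with mt-Nd5 and -0.41 with mt-Rnr2. The isoleucine tRNA mt-Ti, at the far end of mt-Nd1, varied with both mt-Nd1 (r = 0.68) and mt-Rnr2 (r = 0.80), at 8 to 84.5 reads per library. The junctions on either side of mt-Tl1 are shown because the 3 genes abut there, with the first 15 bases of the downstream gene in capitals.
mt-Rnr2 to mt-Tl1, chrM:2661-2690: aacctagagaaggttATTAGGGTGGCAGAG
mt-Tl1 to mt-Nd1, chrM:2736-2765: atcctctccctaataGTGTTCTTTATTAAT

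**Figure D4:**
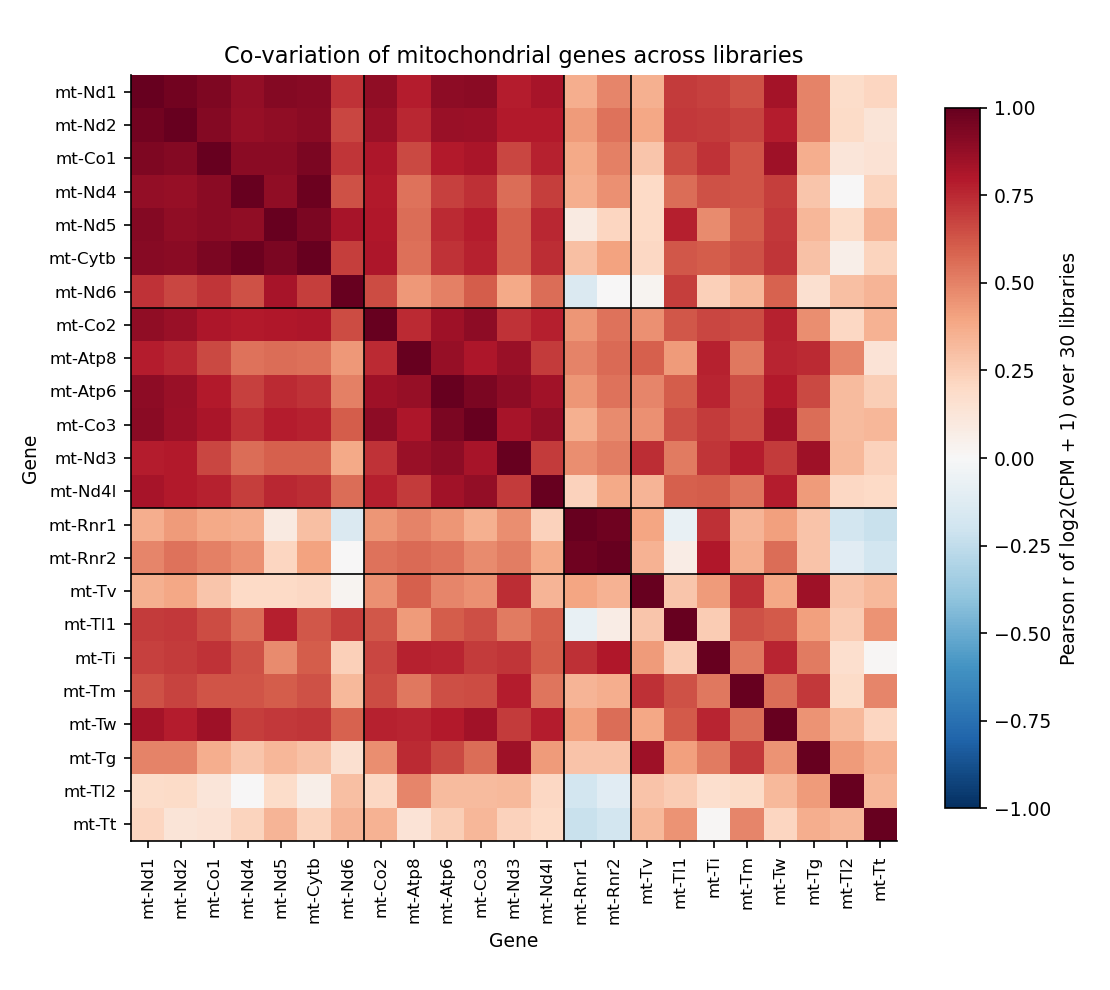
Pearson r of log2(CPM + 1) over 30 libraries for each pair of the 23 tested genes, from blue (-1) to red (1). Black lines separate the mRNAs not wholly inside the chromosome 1 copy (mt-Nd6 last), the mRNAs wholly inside it, the rRNAs and the tRNAs. The mRNAs form a red block. The rRNAs are red with each other (0.97) and with mt-Ti (0.73 and 0.80), and paler with the other genes (at most 0.57, for mt-Rnr2 with mt-Atp8).

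Some measures of the whole library moved with the mRNA share, and the number of read pairs on exons (rho -0.11) and their percent of the library (rho -0.09) showed little relation to it. The mean GC content of nuclear transcripts, weighted by their reads, was 51.7% ± 0.148 in LD and 51.8% ± 0.177 in ADV (SD), and it correlated with the chrM mRNA share at rho -0.86 over 30 libraries (r -0.78, -0.90 within LD, -0.70 within ADV, and -0.87 without ADV mouse 25 and ADV mouse 34). The chrM mRNAs themselves had a GC content of 31.9% (mt-Atp8) to 41.1% (mt-Nd4l). The ratio of rRNA to mRNA reads did not follow the same measure (rho 0.18, r 0.24). The summed fast fiber genes were also lower where the mRNA share was high (rho -0.73, r -0.76, -0.95 within LD, -0.71 within ADV, -0.67 without LD mouse 23 and LD mouse 33). The summed slow fiber genes had rho 0.35 and r 0.36 with the mRNA share, and r 0.31 without ADV mouse 24 and LD mouse 23. For nuclear respiratory chain genes the values were rho 0.24 and r 0.38, and r 0.37 without ADV mouse 34 and LD mouse 23. Within LD the r of these lists was 0.82 and 0.85, and within ADV 0.07 and 0.14. LD mouse 23 had the lowest mRNA share of all libraries (6.05%), and r within LD without that mouse was not computed. These shares are parts of the same total, and the part of GC content or of fiber type in the spread of the mRNA share was not tested. In bulk muscle, fewer mitochondria, less RNA in each and fewer cells of a type cannot be told apart.

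Nuclear genes that varied most like the mRNAs were ranked by Spearman's rho with their summed level (log2(CPM + 1)) among 12007 genes. The highest was Gm29216 (rho 0.93), which lies in the chromosome 1 copy and matches mt-Co1. It was followed by Fastkd2 (0.92), whose protein binds RNA within mitochondria, Synj2bp (0.92), a protein of the mitochondrial outer membrane, Mrpl1 (0.91), of the large subunit of the mitochondrial ribosome, and Ghitm (0.91), of the inner membrane. Within the groups the rho of Fastkd2 was 0.87 (LD) and 0.89 (ADV). The lowest were Ckm (-0.83), which encodes the creatine kinase of muscle cytosol, Snrnp70 (-0.81), Rtn2 (-0.80), Zfp358 (-0.80) and Ap2a1 (-0.79). The ends of the ranking differed in base composition, with a median transcript GC content of 41.5% in the 100 genes with the highest rho, 56.8% in the 100 with the lowest and 50.4% over all.

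The respiratory chain is assembled from mitochondrial and nuclear products, and the nuclear subunits are given here beside the mitochondrial ones. Of 79 nuclear respiratory chain genes 39 were higher in the ADV group at FDR < 0.05 and 0 lower (edgeR with Benjamini-Hochberg adjustment), against 5.61% of all genes called as higher, and 1 was also past a fold change of 1.3. Their median log2 fold change was 0.17, beside 0.003 for all genes. All 79 estimates were above 0, also with the GC trend removed, where 18 were called and 294 of all 12030 genes were called as higher. With the counts scaled to the chrM total all 79 were again above 0 (median 0.27, beside 0.08 for all genes), and 2 were called. In that fit 128 of 12030 genes were called as higher.

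The called genes with the largest log2 fold changes were Cox6a1, Cox8a and Uqcrq. Cox6a1, a subunit of complex IV, had 14.6, 22.7 and 26.2 FPKM in LD and 24.2, 28.6 and 39.6 in ADV (log2 fold change 0.42, SE 0.07, FDR 0.00101). The groups overlapped only between the lowest ADV and the highest LD library. Cox8a, of the same complex, had a log2 fold change of 0.37 (SE 0.08, FDR 0.00442), and Uqcrq, of complex III, one of 0.32 (SE 0.07, FDR 0.00384). Cox6a1 and Cox8a were at low levels for complex IV. In LD libraries Cox8a had 25.02 to 42.51 FPKM, against 631.4 to 935.7 for Cox6a2 and 658.7 to 857.9 for Cox8b. The log2 fold changes of Cox6a2 (0.22, FDR 0.0316) and Cox8b (0.17, FDR 0.0415) were smaller. Which cells held these transcripts was not tested. By complex, 19 of 36 nuclear genes of complex I were called, 0 of 4 of complex II, which has no mitochondrial subunit, 5 of 9 of complex III, 8 of 14 of complex IV and 7 of 15 of complex V. Of the mitochondrial subunits none was called. Those outside the copy were at -0.05 to -0.27 in complex I (mt-Nd1, mt-Nd2, mt-Nd4, mt-Nd5 and mt-Nd6), -0.07 in complex III (mt-Cytb) and -0.07 in complex IV (mt-Co1), while mt-Nd3, mt-Nd4l, mt-Co2, mt-Co3 and both genes of complex V lie inside it. Whether the nuclear and mitochondrial subunits differed from each other in their response was not tested. Slow fiber markers stood beside them with a summed level of 764 to 4036 CPM in LD and 2123 to 6944 in ADV. All 10 slow fiber estimates were above 0 (median 0.45, 0 called). Of the fast fiber markers 5 of 12 were above 0 (median -0.035, -0.195 to 0.208, 0 called). In other cell types, estimates were above 0 for 9 of 9 adipocyte markers (median 0.36, 1 called) and 6 of 6 Schwann cell markers (0.45, 0 called). So were 7 of 9 for endothelium (0.13, 2 called) and 4 of 5 for erythrocytes (0.17, 0 called). Under 0 were 5 of 6 for leukocytes (-0.29, 0 called) and 6 of 7 for fibroblasts (-0.11, 1 called). Over all genes tested 10.8% were called. Summed adipocyte markers were at 846.5 to 1783 CPM in LD and 1216 to 2621 in ADV. The part of any of these in the nuclear result was not tested.

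**Figure D5:**
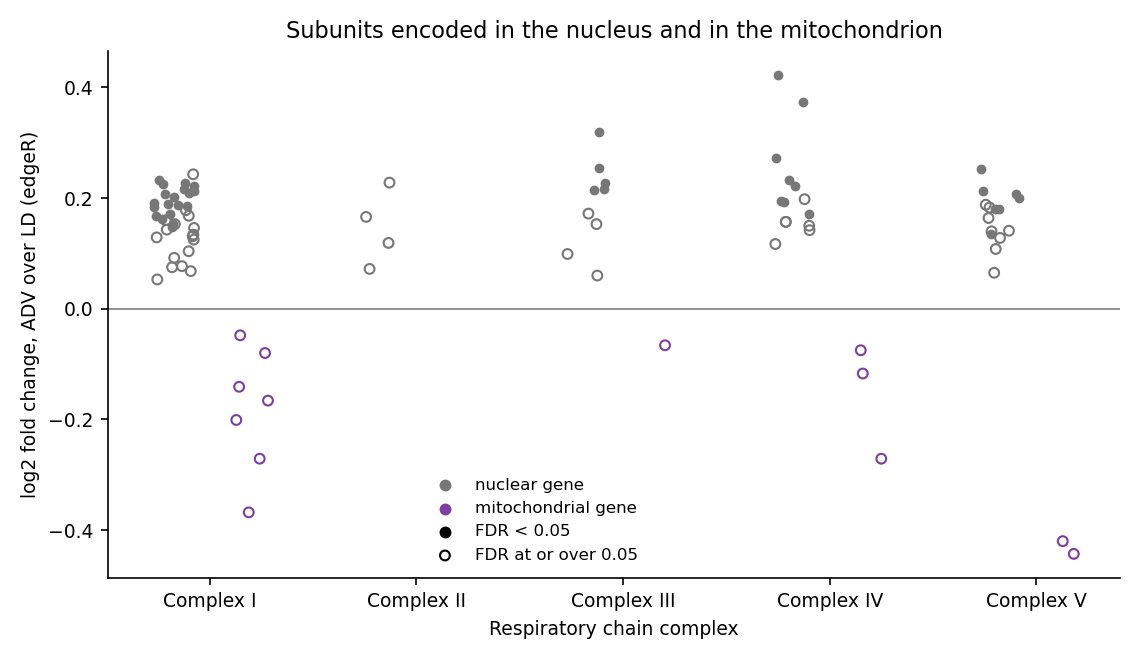
Log2 fold change of the ADV group over the LD group (edgeR) for each subunit of the 5 complexes, grey for nuclear and purple for mitochondrial genes; filled points have FDR < 0.05. All nuclear subunits lie above 0 and all 13 mitochondrial mRNAs under it in this fit (6 of 13 with the GC trend removed), the latter without a filled point.

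Genes that act on mitochondrial DNA and RNA were called as higher in small numbers, to be read against 5.61% of all genes. Of 9 tested genes of mitochondrial transcription 2 were higher in ADV, Mrpl12, a ribosomal protein that also binds the polymerase (log2 fold change 0.23, FDR 0.0197), and the polymerase Polrmt itself (0.16, FDR 0.0367), where Polrmt had 5.57, 6.41 and 7.93 FPKM in LD and 6.56, 7.23 and 8.46 in ADV. Tfam, which packages mitochondrial DNA and starts its transcription, was at 8.09 ± 0.616 FPKM in LD and 7.95 ± 0.576 in ADV (log2 fold change -0.04, FDR 0.525). Of 12 tested genes of DNA maintenance 1 was called, the helicase Twnk (0.14, FDR 0.0427), and of 38 tested genes of RNA processing and decay 5 were, among them the rRNA methyltransferase Mrm3 (0.24, FDR 0.0205), the tRNA modifying enzyme Gtpbp3 (0.24, FDR 0.0288) and Tbrg4, of the Fastk family (0.20, FDR 0.0117). The 8 genes called in these lists compare with 1 gene called with the GC trend removed, and with 4 without ADV mouse 24, ADV mouse 34 or LD mouse 28. Calls also fell over all genes, from 675 called as higher to 294 with the GC trend removed. Without those mice they were 483, 594 and 439 in the same order.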

How the data were processed

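Poly(A)-selected, stranded libraries of gastrocnemius muscle (LD, n = 14, and ADV, n = 16, grouped by their labels) were analysed from the deposited tables. The authors cut adaptors off the 101-base paired reads (Trimmomatic), aligned to GRCm39 (STAR), dropped alignments of mapping quality under 10 and counted exonic reads of known canonical genes (Homer); STAR 2.7.10a and HOMER 4.11 are the versions in the submitters' processing notes. The deposited raw counts are estimated counts in that each mate counts as 0.5, so that 14.8% were not whole, and they were rounded. The deposited FPKM values, made by the authors, equal the count divided by exon length and library total. The tables leave total depth intact (18875468.5 to 28512674 read pairs on exons), and precision for a gene near the minimum of 20 reads is low.

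Of rows that share a symbol the longest expressed one was kept, and the 12030 genes whose means exceeded 20 reads and 0.5 FPKM were compared with edgeR 4.0.16 (TMM, quasi-likelihood test) in R 4.3.3, with Benjamini-Hochberg adjustment and a FDR threshold of 0.05. On simulated counts for these 12030 genes with 200 changed, 99 of 100 genes changed 2-fold and 63 of 100 changed 1.3-fold were called. In no pair of libraries of a group did counts agree within sampling noise (chi-square per degree of freedom at least 10.6). Copies of chrM were found with blastn 2.17.0 in GRCm39 at 90% identity or more, with chrM windows of 101 bases looked up exactly. Alternatives were DESeq2 1.42.0, limma 3.58.1 on log2(FPKM + 1) and log2(FPKM + 0.1), other size factors, library size alone, TMM of nuclear genes, scaling to the chrM total, no filter, a minimum of 100 reads, a GC trend offset (natural spline, 4 df, genes with over 50 reads; GC values for 99.9% of genes), a replicate block, and leaving out each library.

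The genes named were all chrM mRNAs and rRNAs, and tRNAs past the filter, with the most reads or with many windows that were not unique. Also named were the called genes with the largest changes in each nuclear list (up to 3), the 5 nuclear genes with the highest and the 5 with the lowest rho, and nuclear copies of chrM. Dbp, Tfam, Tcim, Armc5, Cox6a2 and Cox8b were named outside this rule, after their values were seen. The members, lists and tests were chosen with earlier results of these data known. Mice are the replicates, and no batch is given in the labels.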

Additional observations from a re-analysis of the deposited data

How the results depend on the processing

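The number of chrM genes called stayed at 0 with DESeq2, limma, the other scalings, either change of filter, scaling to the chrM total and the replicate block. Over all genes the main fit called 1301 of 12030, or 252 with the fold change limit, and DESeq2 called 1679 without it. Scaling to the chrM total called 133, the replicate block 494 and the fit with no filter 629 of 32848. Where so few genes were called at all, a count of 0 chrM genes tells little. The number of chrM genes called was 2 with the GC trend removed (608 of all genes), and 0 to 1 when each library was left out in turn, with or without the fold change limit. The difference in chrM share moved between -0.859 and -0.3345 points when each library was left out.

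The nuclear respiratory chain genes called were 39, and 2 when scaled to the chrM total, 16 with no filter, 18 with the GC trend removed, and 26 to 47 when each library was left out. For transcription, DNA maintenance and RNA processing together they were 8, and 0, 3, 1 and 4 to 9 in the same order. Values of 5 or fewer came without ADV mice 24, 25, 32 and 34 or LD mice 27, 28, 30, 33 and 34. Over all genes tested, those called as higher were 675, and 128, 375, 294 and 439 to 776 in the same order. In the fit scaled to the chrM total all 79 respiratory chain estimates were above 0. With no filter more genes were tested (32848 against 12030), and the cause of the other changes was not tested.

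With the label number as a replicate block (28 libraries in 14 pairs) 23 of the respiratory chain genes and 3 of the others were called. Without the block the same libraries gave 16 and 5, an alternative added after the data were seen. Over all genes the calls were 494 with and 616 without it. Pairs with a number correlated at -0.277 to 0.458 and 3 of 14 best with their own number. Whether the numbers pair the mice cannot be told from these values.

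Signs changed for mt-Nd1 (0.0359), mt-Nd2 (0.121), mt-Co1 (0.0608), mt-Co2 (0.0479), mt-Nd4 (0.172), mt-Nd5 (0.0167) and mt-Cytb (0.0879) with the GC trend removed, and for mt-Co1 (0.0152), mt-Nd4 (0.0337) and mt-Cytb (0.0125) with scaling to the chrM total. For mt-Ti the 30 fits that left out a library gave -0.0345 to 0.148, with the sign changed in 5 of them (-0.0345 to -0.0001). As shares of the chrM reads, mRNA with rRNA had r = -1.0, by construction, rRNA with tRNA -0.35 and mRNA with tRNA 0.30.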

Other observations

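Dbp, a clock output gene with a strong daily rhythm, varied with the ratio of rRNA to mRNA reads. Its level was 6.73, 51.1 and 114 CPM in the lowest, median and highest LD library and 7.92, 16.3 and 35.5 CPM in ADV. Over 30 libraries its Pearson r with the ratio was -0.64 (rho -0.63), and -0.58 without LD mouse 30 and LD mouse 32. Within the LD group r was -0.72 (n = 14), and within the ADV group -0.27 (n = 16). The same gene had rho 0.12 with the mRNA share. Dbp was chosen after its values were seen and with its group difference known, and the relation was not tested.

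The nuclear genes closest to the summed rRNA level were others than those closest to the mRNAs. Tcim had rho 0.77 with the rRNAs and 0.16 with the mRNAs, and Armc5 -0.78 with the rRNAs and -0.31 with the mRNAs.

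The leucine tRNA mt-Tl1 had 1242 to 4385 reads per library of poly(A)-selected RNA, with means of 2906 in LD and 2388 in ADV, beside 1234 and 1049 for the mRNA mt-Nd6.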
